A study of Homo sapiens with 10 samples.

Results

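The nuclear genes for subunits of respiratory complexes II to V were read in microvesicles released by K562 cells and in the cells themselves. The genes were those annotated on the array as SDHA, SDHC, SDHD or CYC1, or with a symbol that begins with UQCR, COX4, COX5, COX6, COX7, COX8 or ATP5. Each was represented by its brightest probe set, the one with the highest mean over all 10 arrays. Of the 19775 genes measured, 47 met the rule: 3 of complex II, 7 of complex III, 18 of complex IV and 19 of complex V. They include the pseudogenes COX6A1P1 and ATP5MC2P1, the supercomplex factor COX7A2L and the inhibitor ATP5IF1, which are not structural subunits. The iron-sulphur subunits SDHB of complex II and UQCRFS1 of complex III were not analysed here.

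K562 is an established line from human chronic myeloid leukaemia with the BCR-ABL1 fusion gene. Microvesicles are small particles, enclosed by membrane, that such cultures release and that hold part of the RNA of the cell. Per the labels, total RNA of the microvesicles and of cultured K562 cells was isolated in 5 independent experiments and measured on 5 Affymetrix arrays per group. No treatment or genotype differs between the groups, both come from 1 cell line, and neither the culture conditions nor the method of vesicle collection is given in the sources used here. Expression is given for each probe set on a log2 scale, with no detection call. In such bulk RNA, fewer vesicles of a kind and less RNA per vesicle cannot be told apart.

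Respiratory complexes sit in the inner mitochondrial membrane. Complex II, succinate dehydrogenase, passes electrons from succinate to ubiquinone, complex III passes them on to cytochrome c, and complex IV, cytochrome c oxidase, passes them to oxygen. Complexes III and IV pump protons, and complex V, the ATP synthase, uses the proton gradient to make ATP. Complex II is encoded wholly in the nucleus, while the others join nuclear subunits, made in the cytosol and imported, with subunits encoded in mitochondrial DNA. Several complex IV subunits have a ubiquitous isoform and another used in muscle, lung or testis.

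Array medians over all probe sets were 4.22 to 4.28 in microvesicles and 4.08 to 4.12 in cells, a difference of 0.16 between group means. The SD over all probe sets of an array was 1.89 to 1.99 in microvesicles and 2.33 to 2.36 in cells. The change also depended on level. Over all genes its median was 0.61 for genes with a mean of 3 to 4, −0.98 for genes at 7 to 8 and −0.33 for genes at 11 to 12. Subunit changes are therefore given on the deposited values and after loess normalisation by level, in which each array was fitted against the mean array over all probe sets. A subunit gene with no loess value below passed in neither fit. Control probe sets at the 3' and the 5' end of a transcript measure RNA integrity and labelling. For ACTB the 3' value exceeded the 5' value by 3.12 ± 0.34 in microvesicles and by 2.39 ± 0.15 in cells (SD, n = 5 per group, 2-sided exact permutation p = 0.00794, the smallest the design allows). The GAPDH excess was 0.619 ± 0.13 in microvesicles and 0.449 ± 0.064 in cells (SD, n = 5 per group, exact permutation p = 0.0159). These excesses differ between the groups, as the subunit genes below do, and their part in the results was not tested. Of 8 markers of K562 identity 5 were measured by probe sets of 1 gene, and their mean level was 8.51 to 9.19 in microvesicles and 9.43 to 9.63 in cells. TFRC, the transferrin receptor, averaged 10.65 in microvesicles and 12.28 in cells, and TAL1, an erythroid transcription factor, averaged 7.94 in microvesicles and 8.72 in cells. Both were lower (limma adjusted p = 4.97e-06 and 0.00542), as was GATA1, and none of the 5 passed as higher. HBE1 averaged 12.09 in microvesicles and 11.72 in cells and did not pass (limma adjusted p = 0.0764). After loess HBE1 was higher by 0.64 (limma adjusted p = 0.00882) and TFRC stayed lower, at −1.30. The other 3 did not pass after loess, with TAL1 at −0.02 and GATA1 at 0.24. For 6 of 7 markers of other blood cells the mean level was 4.72 to 4.90 in microvesicles and 4.59 to 5.22 in cells. Among them CD3E, MS4A1 and CD14 were higher in microvesicles, at means of 3.48 to 4.45 against 2.93 to 3.55 in cells. LYZ was lower, at 4.85 against 7.50. After loess CD3E (0.61) stayed higher and LYZ (−1.94) stayed lower, and none of the others passed. For 4 markers of other sources the mean level was 5.30 to 5.82 in microvesicles and 5.61 to 5.997 in cells, with COL1A1 higher by 0.49 and ALB and KRT8 lower, at changes of −1.55 and −0.45. After loess COL1A1 (1.34) stayed higher and ALB (−1.77) stayed lower, and KRT8 (0.34) did not pass. The part of these markers in the subunit changes was not tested.

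Most subunit genes differed little between microvesicles and cells: 33 of 47 changed by less than 0.5 on the log2 scale, as did 6488 of all 19775 genes. With a mean of at least 8 it was 28 of 38 subunit genes and 1170 of all 2879 genes. By limma with Benjamini-Hochberg adjustment over all genes, 6 passed as higher and 13 as lower in microvesicles at an adjusted p under 0.05, and 28 did not pass. Of all genes, 66.6% passed, 35.5% as higher and 31.2% as lower, and 19 of 47 is a smaller share than that of all genes. The median change was −0.14, beside 0.20 over all genes. For 21 of 47 the 5 microvesicle arrays did not overlap the 5 cell arrays, which held for 49.9% of all genes. Only SDHA and COX7A1 passed with a change of at least 2-fold, as did 31.1% of all genes. After loess by level 14 subunit genes were higher and 2 lower, with a median of 0.14. Of all genes 44.8% passed, 26.0% as higher and 18.8% as lower, and their loess median was also 0.14. Centring each array on its median gave 3 higher and 22 lower (60.4% of all genes passed, 25.7% as higher and 34.7% as lower). A further quantile normalization gave 14 higher and 2 lower (43.0% passed, 26.5% as higher and 16.5% as lower). These are the 4 scalings compared below. Of the 13 genes called lower, 12 no longer passed after loess.

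Most subunit genes are bright. With a mean of at least 8 there were 38 subunit genes, of which 3 were higher and 13 lower, with a median of −0.22. Among all 2879 genes at that level 65.6% passed, 6.11% as higher and 59.5% as lower, and their median was −0.57. The groups did not overlap for 19 of the 38, and for 58.6% of all bright genes. After loess 12 bright subunit genes were higher and 1 lower, while 46.5% of all bright genes passed, 23.8% as higher and 22.7% as lower. The loess median was 0.10 over the bright subunit genes and 0.0099 over all bright genes. Set against other genes within the same 1-unit band of level, 25 of the 38 had a change above that of more than 50% of them, with positions from 16.4% for ATP5F1A and ATP5PB to 97.2% for ATP5MC2. These shares describe the genes and are not a test. The plot of change against level shows the subunit genes along the right arm of the all-gene curve.

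**Figure D1:**
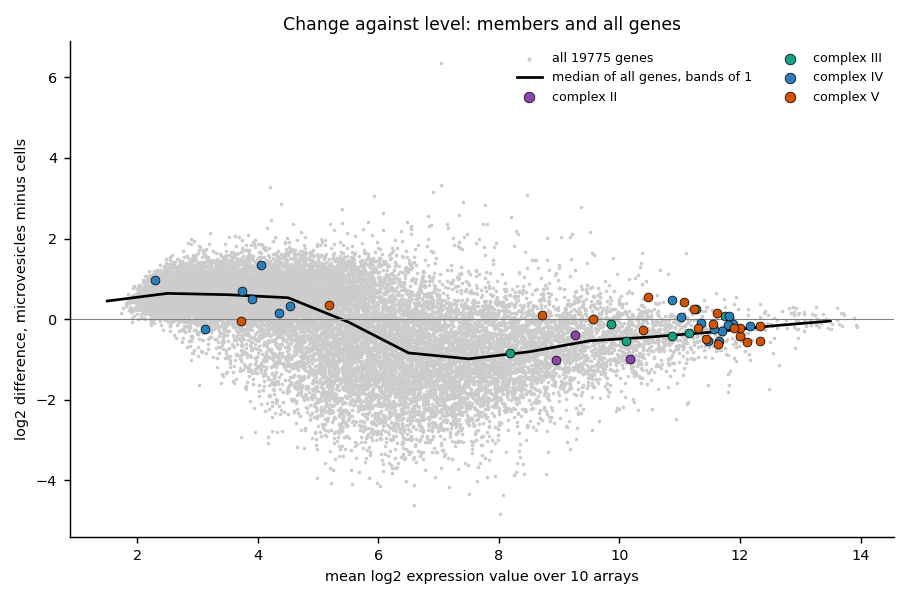
Log2 change (microvesicles minus cells) against the mean log2 expression value over 10 arrays, for all 19775 genes in grey and for the 47 subunit genes coloured by complex, with the median of all genes in bands 1 wide as a black line. The curve lies above 0 for dim genes and dips to −0.98 at levels of 7 to 8, and the bright subunit genes lie between −0.62 and 0.55 except SDHA, SDHD and UQCRC1, which lie below.

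Most bright subunit genes were more variable in microvesicles. Among the 38 bright subunit genes the SD over 5 arrays was larger in microvesicles than in cells for 29, with a median of 0.167 in microvesicles and 0.0869 in cells. The share over all genes is not given here, so this cannot be called particular to the subunit genes. Microvesicles 4 held the lowest of the 5 microvesicle values for 21 of the 38, and microvesicles 1 the highest for 22. The same 2 arrays had the highest and the lowest ACTB 3' minus 5' difference of their group, 3.64 in microvesicles 4 and 2.72 in microvesicles 1. Without microvesicles 4, 16 of the 47 genes passed, 6 as higher and 10 as lower, and 13074 of the 19775 genes passed, 6913 as higher and 6161 as lower.

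**Figure D2:**
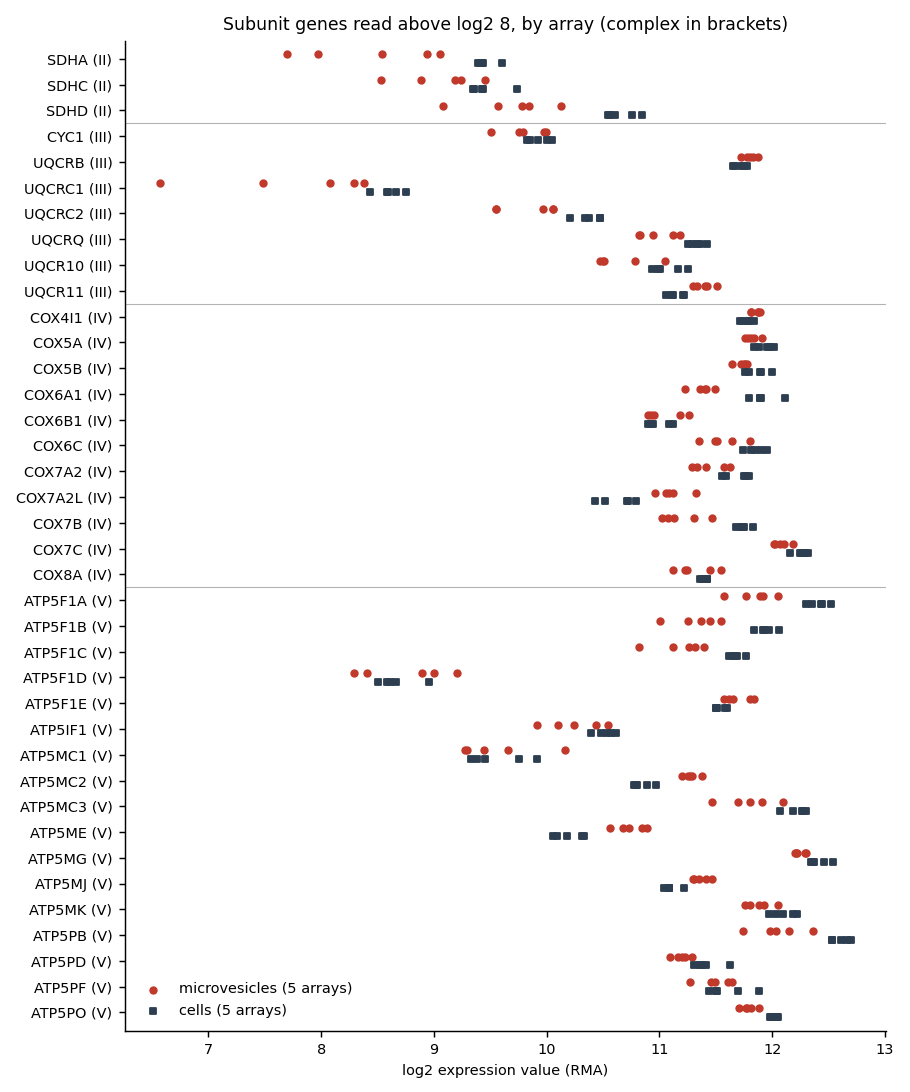
Log2 expression value (RMA) on each of the 5 microvesicle arrays (red circles) and 5 cell arrays (dark squares) for the 38 subunit genes with a mean of at least 8, ordered by complex. Microvesicle values spread widely for SDHA, SDHD and UQCRC1 and lie below all cell values, while for COX7A2L, ATP5MC2 and ATP5ME they lie above them.

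Complex II had the lowest median of the 4 complexes, −0.98 on the deposited values and −0.33 after loess. Its 3 genes are all bright, and 2 were lower. Of all bright genes 59.5% were lower, with a median of −0.57 and, after loess, 0.0099. The median over all genes was −0.81 at levels of 8 to 9, −0.54 at 9 to 10 and −0.44 at 10 to 11. Within its 1-unit band, SDHA lay above 39.1% of other genes, SDHC above 60.3% and SDHD above 16.8%. SDHA, the flavoprotein that holds the catalytic site, read 9.06, 8.54, 7.97, 7.70 and 8.93 in microvesicles 1 to 5, against 9.61, 9.44, 9.41, 9.43 and 9.39 in cells 1 to 5. Every microvesicle array lay below every cell array. SDHA fell by 1.01 ± 0.24 (SE) on the log2 scale, or 2.02-fold (limma adjusted p = 0.00286), and by 0.83 without microvesicles 4 (limma adjusted p = 0.00482; 0.000934 to 0.00897 over the 10 fits that left out 1 array). After loess the change was −0.33 ± 0.22 and did not pass (limma adjusted p = 0.244). SDHD, a membrane anchor that with SDHC holds the haem and the ubiquinone site, read 10.13, 9.56, 9.78, 9.08 and 9.84 in microvesicles, against 10.61, 10.84, 10.75, 10.57 and 10.54 in cells. Again the groups did not overlap, and microvesicles 4 was lowest. SDHD fell by 0.98 ± 0.19 (limma adjusted p = 0.00072), and it was the only subunit gene called lower under all 4 scalings, with a change of −0.47 ± 0.16 after loess (limma adjusted p = 0.0283).

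The anchor SDHC read 9.24, 8.53, 8.89, 9.18 and 9.46 in microvesicles, against 9.43, 9.35, 9.43, 9.73 and 9.35 in cells. These values overlap, and the change of −0.40 ± 0.19 did not pass (limma adjusted p = 0.0743), nor did the loess change of 0.24 ± 0.19. The call depended on the probe set. In the fit over every probe set 62.4% of all probe sets passed. Of the 7 for SDHC, 5 were lower in microvesicles, with changes of −0.54 to −2.02, while the brightest and 1 dim one did not pass. The mean of its probe sets changed by −1.02 (limma adjusted p = 1.34e-05). SDHD has another, dim probe set that read 3.40 in microvesicles and 2.38 in cells and was higher by 1.01 (limma adjusted p = 0.0012), so that the mean of its 2 probe sets changed by 0.01. It was the only subunit gene with probe sets past the threshold both ways. SDHA rests on 1 probe set of the _x_ kind, which can bind related transcripts, and another probe set shared by SDHA and SDHA pseudogenes read 5.70 in microvesicles and 7.35 in cells.

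Promoters of many respiratory genes are known to bind nuclear respiratory factor 1 (NRF1) and ETS-family factors such as GABP. Promoter windows of 300 bases, 250 before to 50 after a gene's start, were taken from RefSeq (GRCh38.p14) and matched 35 of the 47 genes with 41 windows. The NRF1 motif searched, GCGC followed by any base and TGCGC, was found on either strand in 24.4% of these windows and in 5.78% of all 35116 windows of that length. The ETS motif CCGGAAGT was found on either strand in 22.0% of the windows of these genes and in 4.14% of all windows. The motifs were counted separately and did not overlap in the windows printed. The 250 bases before the start are shown for SDHA and SDHD, the bright genes with the largest falls, and for ATP5ME, the bright gene with the largest rise. Capitals mark motif matches. SDHA (chr5:218070-218319, plus strand) holds 4 NRF1 matches, SDHD (chr11:112086623-112086872, plus strand) 1 NRF1 and 1 ETS match, and ATP5ME (chr4:674277-674526, minus strand) 2 NRF1 matches.
SDHA: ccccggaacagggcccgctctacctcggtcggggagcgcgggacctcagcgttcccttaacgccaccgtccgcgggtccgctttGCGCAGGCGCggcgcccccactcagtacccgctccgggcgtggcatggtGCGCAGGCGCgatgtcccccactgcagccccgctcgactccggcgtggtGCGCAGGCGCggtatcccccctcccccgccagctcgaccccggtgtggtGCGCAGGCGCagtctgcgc
SDHD: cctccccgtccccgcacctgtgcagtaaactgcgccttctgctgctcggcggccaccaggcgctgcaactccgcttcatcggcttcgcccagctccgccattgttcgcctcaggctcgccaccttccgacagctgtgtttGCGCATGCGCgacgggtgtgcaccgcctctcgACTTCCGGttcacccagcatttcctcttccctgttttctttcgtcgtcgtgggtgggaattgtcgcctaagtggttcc
ATP5ME: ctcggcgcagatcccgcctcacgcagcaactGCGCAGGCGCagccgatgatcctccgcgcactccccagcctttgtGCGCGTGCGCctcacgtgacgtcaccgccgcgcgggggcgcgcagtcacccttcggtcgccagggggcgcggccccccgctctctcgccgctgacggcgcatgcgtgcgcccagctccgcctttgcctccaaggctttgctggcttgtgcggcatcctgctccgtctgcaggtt
NRF1 matches thus stood in promoters of genes that were lower and of a gene that was higher in microvesicles. Among bright genes with a window, the median change was −0.41 for the 9 with an NRF1 match and −0.17 for the 22 without, and −0.22 and −0.20 for the 9 with and 22 without an ETS match, given as a description. A match shows only that these letters are present.

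In complex III the 2 core proteins were lower and cytochrome c1 did not pass. Of 7 genes 4 were lower and none higher, with a median of −0.35, and after loess 3 were higher, none was lower and the median was 0.02. All 7 are bright. Of all bright genes 59.5% were lower and 6.11% higher, with a median of −0.57, and after loess 22.7% and 23.8%, with a median of 0.0099. UQCRC1, core protein 1, which faces the mitochondrial matrix, read 8.29, 8.08, 7.48, 6.57 and 8.38 in microvesicles, against 8.76, 8.59, 8.58, 8.66 and 8.43 in cells. All microvesicle values lay below all cell values, and microvesicles 4 was far below the others. The fall of 0.84 ± 0.29 (limma adjusted p = 0.0216) became 0.55 without that array (limma adjusted p = 0.0244; 0.0101 to 0.0484 over the 10 fits that left out 1 array). After loess the change was −0.06 ± 0.28. UQCRC2, core protein 2, averaged 9.84 ± 0.26 in microvesicles and 10.37 ± 0.11 in cells (SD, n = 5 each) and fell by 0.54 ± 0.16 (limma adjusted p = 0.0112). Its loess change was −0.01 ± 0.14.

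CYC1, cytochrome c1, which hands electrons to cytochrome c, read 9.98, 9.79, 9.75, 9.50 and 9.99 in microvesicles, against 10.05, 9.85, 9.83, 9.99997 and 9.92 in cells. The groups overlap and the change of −0.13 ± 0.15 did not pass (limma adjusted p = 0.455), whereas after loess it was 0.43 ± 0.14 and passed (limma adjusted p = 0.0222). Among the small subunits, UQCRQ (−0.35 ± 0.14, limma adjusted p = 0.0442) and UQCR10 (−0.41 ± 0.16, limma adjusted p = 0.0401) were lower. Each of these calls was lost in 8 of the 10 fits that left out 1 array, where the limma adjusted p reached 0.0901 for UQCRQ and 0.0934 for UQCR10. After loess their changes of 0.02 and 0.0056 did not pass. The small subunit UQCR11 read 11.40, 11.30, 11.33, 11.42 and 11.51 in microvesicles, against 11.06, 11.12, 11.11, 11.21 and 11.22 in cells. Its groups do not overlap, yet the change of 0.25 ± 0.14 did not pass (limma adjusted p = 0.114). After loess it was 0.61 ± 0.14 (limma adjusted p = 0.00311). UQCRB changed by 0.08 ± 0.13 and did not pass (limma adjusted p = 0.581), and passed as higher after loess at 0.37 ± 0.14 (limma adjusted p = 0.0394). A probe set shared by UQCRH and its copy UQCRHL read 12.16 ± 0.19 in microvesicles and 12.35 ± 0.069 in cells (SD, n = 5 each, limma adjusted p = 0.28).

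**Figure D3:**
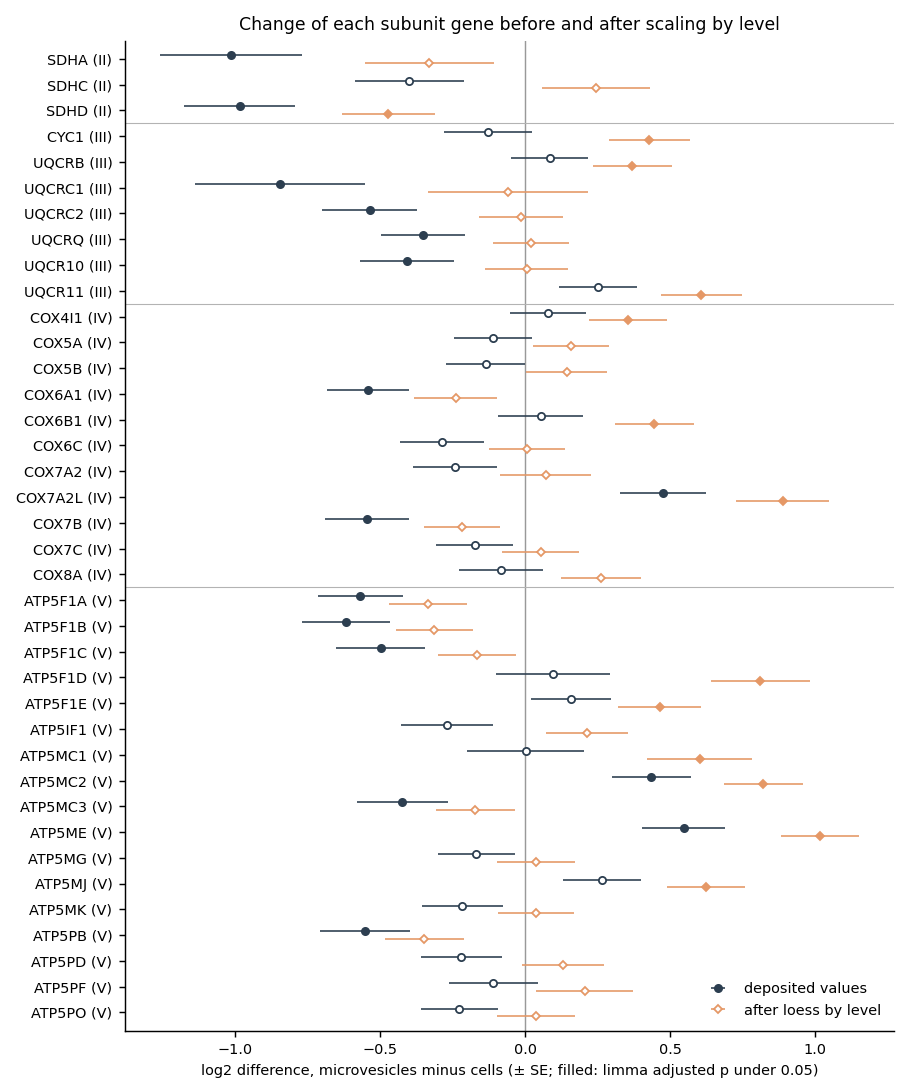
Log2 change (microvesicles minus cells, ± SE) of the 38 subunit genes with a mean of at least 8, on the deposited values (dark circles) and after loess by level (orange diamonds), with filled symbols at a limma adjusted p under 0.05. Loess moves every gene toward higher values in microvesicles, and only SDHD stays called as lower while COX7A2L, ATP5MC2 and ATP5ME stay called as higher.

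Complex IV genes centred near no change on the deposited values, with a median of −0.02 over 18 genes and −0.14 over the 11 bright ones. Of the 18, 4 were higher and 2 lower, and after loess 4 were higher, 1 was lower and the median was 0.17. Of all genes 35.5% were higher and 31.2% lower, and after loess 26.0% and 18.8%, with a median of 0.14. Of the 11 bright ones 1 was higher and 2 were lower, beside 6.11% and 59.5% of all bright genes. The 2 lower genes both encode small ubiquitous subunits. COX7B read 11.47, 11.02, 11.13, 11.07 and 11.30 in microvesicles, against 11.72, 11.74, 11.75, 11.83 and 11.68 in cells. COX6A1 read 11.49, 11.40, 11.23, 11.42 and 11.36 in microvesicles, against 11.89, 11.90, 11.89, 12.11 and 11.79 in cells. Neither gene's groups overlap. COX7B fell by 0.55 ± 0.15 (limma adjusted p = 0.00547) and COX6A1 by 0.54 ± 0.14 (limma adjusted p = 0.00452), and after loess their changes of −0.22 and −0.24 did not pass.

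COX4I1, the ubiquitous isoform of a subunit through which ATP regulates the enzyme, read 11.88, 11.89, 11.81, 11.82 and 11.87 in microvesicles, against 11.84, 11.72, 11.79, 11.74 and 11.79 in cells. COX6B1, which faces the intermembrane space, read 11.26, 10.90, 10.93, 10.95 and 11.18 in microvesicles, against 10.94, 10.90, 10.93, 11.12 and 11.08 in cells. Both overlap between groups, with changes of 0.08 ± 0.13 and 0.05 ± 0.15 that did not pass (limma adjusted p = 0.606 and 0.754). After loess both passed as higher, COX4I1 at 0.36 ± 0.13 and COX6B1 at 0.44 ± 0.14 (limma adjusted p = 0.0451 and 0.0167), and both also passed after quantile normalization. COX7A2 read 11.33, 11.29, 11.41, 11.57 and 11.62 in microvesicles, against 11.59, 11.79, 11.75, 11.55 and 11.77 in cells. COX8A read 11.45, 11.23, 11.12, 11.24 and 11.54 in microvesicles, against 11.43, 11.36, 11.38, 11.41 and 11.42 in cells. Both overlap between groups and neither passed, with changes of −0.24 ± 0.14 and −0.08 ± 0.14. COX5A (−0.11), COX5B (−0.14), COX6C (−0.29) and COX7C (−0.17) did not pass either. Another bright COX7C probe set changed by −0.58 and passed as lower (limma adjusted p = 0.00588 in the fit over every probe set). The remaining COX7C probe set did not pass (0.18). For COX5B the 3 bright probe sets gave changes of −0.14 to −0.15, while another, dimmer one read 7.60 in microvesicles and 6.27 in cells, higher by 1.33 (limma adjusted p = 2.6e-05 in the fit over every probe set). The 1 bright gene of the group that was higher is COX7A2L, which helps join complexes III and IV into supercomplexes. It averaged 11.11 ± 0.13 in microvesicles and 10.63 ± 0.15 in cells (SD, n = 5 each), a rise of 0.47 ± 0.15 (limma adjusted p = 0.0127), and 0.89 ± 0.16 after loess (limma adjusted p = 0.000544). It did not pass after centring arrays on their median (0.32, limma adjusted p = 0.0826).

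The tissue isoforms of complex IV were dim in both groups, near or below the array medians, and whether their probe sets exceed background is not known. COX7A1, the heart and muscle isoform of the subunit whose ubiquitous form is COX7A2, read 3.77, 5.17, 3.84, 5.97 and 4.86 in microvesicles, against 3.43, 3.29, 3.38, 3.596 and 3.15 in cells. All microvesicle values lay above all cell values, over a range of more than 2 log2 units. The rise of 1.35 ± 0.35, or 2.56-fold (limma adjusted p = 0.00451), passed under all 4 scalings and was 1.07 ± 0.34 after loess (limma adjusted p = 0.0205). After loess the groups overlapped, with microvesicles 1 and 3 at 3.72 and 3.71 and cells 4 at 3.74. Of all 3408 genes with a mean of 4 to 5, 1687 were higher on the deposited values, with a median change of 0.53. COX8C, the testis isoform beside COX8A, read 4.26, 2.24, 2.26, 2.51 and 2.62 in microvesicles, against 1.62, 1.72, 2.04, 1.86 and 1.76 in cells. Its rise of 0.98 ± 0.32 (limma adjusted p = 0.017) became 0.61 without microvesicles 1, the high array (limma adjusted p = 0.00456; 0.00456 to 0.0389 over the 10 fits that left out 1 array), and 0.43 ± 0.32 after loess (limma adjusted p = 0.298). COX6A2, the heart and muscle isoform beside COX6A1, read 3.73, 4.48, 3.81, 4.80 and 3.98 in microvesicles, against 3.81, 3.58, 3.59, 3.75 and 3.55 in cells. Its groups overlap, and the rise of 0.50 ± 0.21 (limma adjusted p = 0.0474) was lost in 7 of the 10 fits that left out 1 array. It was also lost under the other 3 scalings, at 0.34 after centring, 0.29 after quantile normalization and 0.19 after loess (limma adjusted p = 0.161, 0.337 and 0.478).

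COX4I2, the lung isoform, read 4.21, 5.02, 4.82, 4.35 and 5.02 in microvesicles, against 4.26, 4.37, 4.29, 4.55 and 4.37 in cells. This gene's change was 0.32 ± 0.19. The testis isoform COX6B2 read 4.57, 4.99, 4.52, 3.72 and 4.33 in microvesicles, against 4.18, 4.08, 4.57, 4.30 and 4.25 in cells. The testis isoform COX7B2 read 2.82, 2.70, 3.18, 3.30 and 3.03 in microvesicles, against 3.24, 3.23, 3.05, 3.29 and 3.44 in cells. All 3 overlap between the groups and did not pass on the deposited values, and COX7B2 passed as lower after loess, at −0.74 ± 0.16 (limma adjusted p = 0.00222). Whether a tissue isoform changed differently from its ubiquitous partner was tested in 6 pairs by an exact permutation test of the difference between the 2 changes, 2-sided and adjusted over the pairs. The difference was positive in all 6. It passed for COX7A1 over COX7A2 (1.597 ± 0.41, SE), COX8C over COX8A (1.06 ± 0.35) and COX6A2 over COX6A1 (1.05 ± 0.21), each with n = 5 per group, an exact p of 0.00794 and an adjusted p of 0.0159. It did not pass for COX4I2 over COX4I1 (0.24, exact adjusted p = 0.257), COX6B2 over COX6B1 (0.10, exact adjusted p = 0.683) or COX7B2 over COX7B (0.30, exact adjusted p = 0.179). Each pair sets a dim probe set against a bright one, and the change depends on level. After loess the differences for COX7A1 (1.004) and COX6A2 (0.43) stayed positive and passed (exact adjusted p = 0.0317 each). The difference for COX7B2 turned to −0.52 (exact adjusted p = 0.0317), and that for COX8C, at 0.17, did not pass (exact adjusted p = 0.952). After quantile normalization none of the 3 differences that had passed did so: COX7A1 was at 1.18 and COX6A2 at 0.51 (exact adjusted p = 0.0794 each), and COX8C was at 0.37 (exact adjusted p = 0.69).

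**Figure D4:**
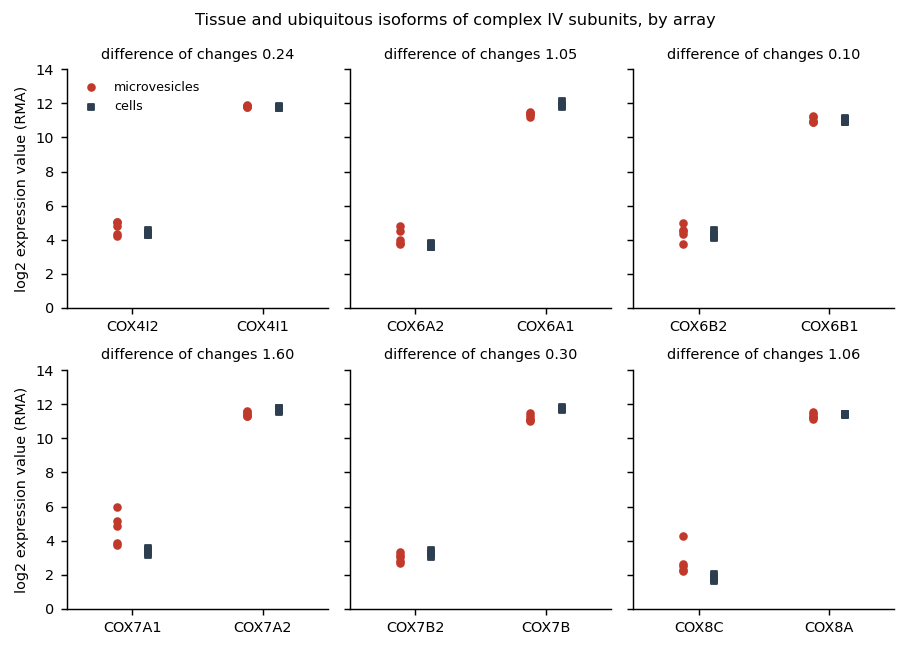
Log2 expression value (RMA) of the tissue isoform (left in each panel) and the ubiquitous isoform (right) of 6 complex IV subunits, on 5 microvesicle arrays (red circles) and 5 cell arrays (dark squares), with the difference between the 2 changes above each panel. COX7A1 spreads from 3.77 to 5.97 in microvesicles against 3.15 to 3.596 in cells, while every ubiquitous isoform stays between 10.90 and 12.11.

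Complex V genes are given by position in the enzyme. Of 19 genes 2 were higher and 5 lower, with a median of −0.17, and after loess 7 were higher, none was lower and the median was 0.13. Of all genes 35.5% were higher and 31.2% lower, and after loess 26.0% and 18.8%, with a median of 0.14. Of the 17 bright ones 2 were higher and 5 lower, beside 6.11% and 59.5% of all bright genes. In the F1 head, which makes ATP, the 3 large subunits were lower. ATP5F1A, the alpha subunit, read 12.05, 11.89, 11.92, 11.57 and 11.77 in microvesicles, against 12.52, 12.44, 12.43, 12.30 and 12.35 in cells. ATP5F1B, the catalytic beta subunit, read 11.55, 11.25, 11.37, 11.01 and 11.45 in microvesicles, against 12.06, 11.97, 11.91, 11.92 and 11.84 in cells. ATP5F1C, the gamma subunit that forms the rotating shaft, read 11.39, 11.12, 11.31, 10.81 and 11.26 in microvesicles, against 11.65, 11.62, 11.67, 11.77 and 11.69 in cells. No microvesicle value reached the lowest cell value in any of the 3 genes, and microvesicles 4 was lowest in each. The falls were 0.57 ± 0.15, 0.62 ± 0.15 and 0.50 ± 0.15 (limma adjusted p = 0.00459, 0.00322 and 0.0118), and after loess the changes were −0.33, −0.31 and −0.17 and did not pass (limma adjusted p = 0.059, 0.071 and 0.335). The small F1 subunits ATP5F1D (delta, 0.09 ± 0.20) and ATP5F1E (epsilon, 0.16 ± 0.14) did not pass on the deposited values, and passed as higher after loess at 0.81 and 0.46 (limma adjusted p = 0.00176 and 0.0171).

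Among the 4 genes of the peripheral stalk, which holds the head still, ATP5PB (subunit b) was lower by 0.55 ± 0.15 (limma adjusted p = 0.00698), at 12.05 ± 0.23 in microvesicles and 12.61 ± 0.077 in cells (SD, n = 5 each). Its loess change of −0.35 did not pass (limma adjusted p = 0.0528). ATP5PD, ATP5PF and ATP5PO changed by −0.22, −0.11 and −0.23 and did not pass. The proton-carrying c ring is built from 1 protein that 3 genes encode, since only their import sequences differ. These genes gave 3 different values: ATP5MC2 was higher by 0.43 ± 0.13 (limma adjusted p = 0.0125), ATP5MC1 changed by 0.00 ± 0.20 (limma adjusted p = 0.993) and ATP5MC3 was lower by −0.42 ± 0.16 (limma adjusted p = 0.0296). The call of ATP5MC3 was lost in 6 of the 10 fits that left out 1 array. Another bright ATP5MC3 probe set changed by −0.29 and a dim one by −0.27. Neither passed (limma adjusted p = 0.118 and 0.379 in the fit over every probe set). After loess ATP5MC2 (0.82) and ATP5MC1 (0.60) were higher and ATP5MC3 (−0.17) did not pass. After centring ATP5MC2 did not pass either (0.28, limma adjusted p = 0.0931).

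Small membrane subunits, which help ATP synthase form dimers, were led by ATP5ME (subunit e). It read 10.89, 10.68, 10.73, 10.56 and 10.84 in microvesicles, against 10.18, 10.06, 10.09, 10.33 and 10.31 in cells. Every microvesicle array lay above every cell array. The rise of 0.55 ± 0.14 (limma adjusted p = 0.00507) passed under all 4 scalings and was 1.02 ± 0.14 after loess (limma adjusted p = 5.82e-05). Its second probe set rose by 0.63, though both are of the _x_ kind. ATP5MG (subunit g) changed by −0.17 ± 0.13 and ATP5MK by −0.22 ± 0.14, and neither passed. A less bright ATP5MG probe set changed by −0.70 and passed as lower (limma adjusted p = 0.00252 in the fit over every probe set). The remaining ATP5MG probe sets did not pass (−0.17 and −0.13). ATP5MJ averaged 11.37 ± 0.072 in microvesicles and 11.10 ± 0.068 in cells (SD, n = 5 each) with no overlap. Its change of 0.26 ± 0.13 did not pass (limma adjusted p = 0.0969) until loess (0.62, limma adjusted p = 0.00195). The other ATP5MJ probe set, also bright, was higher by 0.41 (limma adjusted p = 0.0405 in the fit over every probe set). ATP5MF rests here on a dim probe set that changed by −0.03. A brighter one shared with an antisense gene read 10.59 ± 0.2 in microvesicles and 10.76 ± 0.059 in cells (SD, n = 5 each, limma adjusted p = 0.334). The inhibitor ATP5IF1, which blocks ATP hydrolysis when the proton gradient fails, changed by −0.27 ± 0.16 and did not pass (limma adjusted p = 0.144). Its other probe sets both passed as lower in the fit over every probe set. A bright one changed by −0.43 (limma adjusted p = 0.0309) and a dim one by −1.41 (limma adjusted p = 0.00903). After loess their changes were 0.28 and −0.57. The pseudogenes COX6A1P1 (0.70 ± 0.31) and ATP5MC2P1 (0.36 ± 0.18) were dim and did not pass on the deposited values, and ATP5MC2P1 passed as higher after loess, at 0.52 ± 0.17 (limma adjusted p = 0.0232).

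Assembly factors, which build these complexes without staying in them, were mostly lower or not called. Of 43 measured, 1 was higher and 20 were lower (median −0.45), beside 35.5% and 31.2% of all genes and 6.11% and 59.5% of genes with a mean of at least 8. After loess 8 were higher and 6 lower, beside 26.0% and 18.8% of all genes. Their difference from the subunit genes was not tested. For complex II, 3 of 4 were lower, led by SDHAF3 (−1.31 ± 0.20, limma adjusted p = 0.000123) and SDHAF4 (−1.30 ± 0.33, limma adjusted p = 0.00363), and both stayed lower after loess (−0.50 and −0.997). For complex III, 4 of 6 were lower, led by LYRM7, a matrix chaperone of the iron-sulphur protein, at 6.78 ± 0.43 in microvesicles and 9.52 ± 0.14 in cells (SD, n = 5 each). LYRM7 fell by 2.74 ± 0.20 (limma adjusted p = 4.14e-07), and its loess change was −1.95 (limma adjusted p = 2.38e-06). For complex IV, 11 of 28 were lower and 1 higher. COX15, needed to make haem A, fell by 1.90 ± 0.30 (limma adjusted p = 0.000147) and SCO1, which delivers copper, fell by 1.88 ± 0.29 (limma adjusted p = 0.000111), and both stayed lower after loess. COX19, another copper factor, was higher by 0.99 ± 0.19 (limma adjusted p = 0.000561) and by 1.34 after loess. For complex V, 2 of 5 were lower, ATPAF1 (−1.02 ± 0.26, limma adjusted p = 0.0039) and TMEM70 (−0.68 ± 0.17, limma adjusted p = 0.00313), and neither passed after loess (−0.26 and −0.06, limma adjusted p = 0.388 and 0.753).

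Cytochrome c (CYCS), the carrier between complexes III and IV, fell by 0.66 ± 0.14 (limma adjusted p = 0.00142), and the lyase HCCS that attaches its haem fell by 0.94 ± 0.17 (limma adjusted p = 0.000352). After loess CYCS (−0.34) stayed lower and HCCS (−0.24) did not pass. Of 6 mitochondrially encoded genes of complexes III to V 4 were measured, and all 4 were lower, with a median of −1.25 and, after loess, −1.03. COX1, the catalytic subunit of complex IV, averaged 11.60 ± 0.70 in microvesicles and 13.35 ± 0.19 in cells (SD, n = 5 each), a change of −1.74 ± 0.28 (limma adjusted p = 0.00017). ATP6, the stator subunit beside the c ring, fell by 1.36 ± 0.30 (limma adjusted p = 0.00175). COX2 and COX3 fell by 1.14 and 0.76, and only COX3 did not pass after loess (−0.04). The nuclear genes of complexes IV and V had medians of −0.02 and −0.17. Of 36 nuclear subunits of complex I, 1 was higher and 9 lower with a median of −0.10. Of 77 mitochondrial ribosomal proteins 7 were higher and 31 lower with a median of −0.28. Beside them, 35.5% of all genes were higher and 31.2% lower, and 6.11% and 59.5% of bright genes. After loess the counts were 15 and 1 for complex I and 30 and 5 for the ribosome. Those shares were then 26.0% and 18.8% of all genes and 23.8% and 22.7% of bright genes. The loess median was 0.34 for complex I and 0.31 for the ribosome, beside 0.14 over all genes. For complexes II, III, IV and V it was −0.33, 0.02, 0.17 and 0.13.

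**Figure D5:**
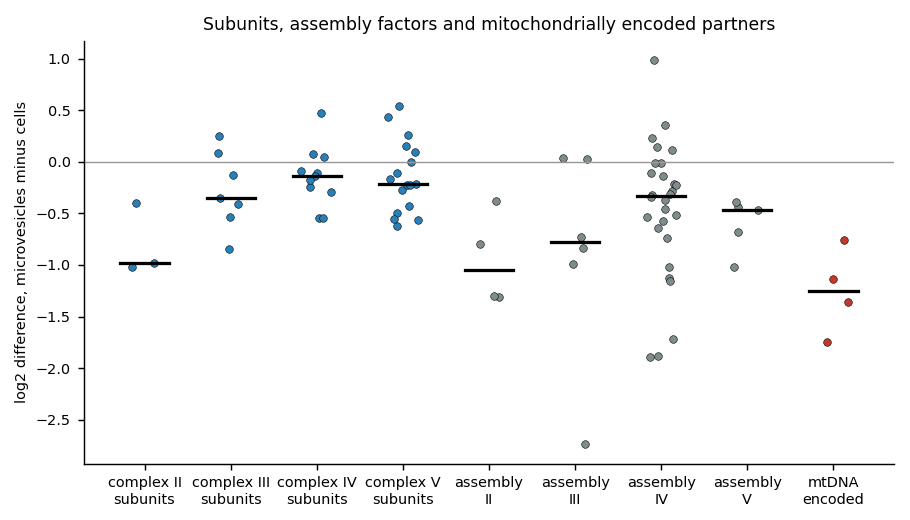
Log2 change (microvesicles minus cells) of each gene, with the group median as a bar, for subunit genes with a mean of at least 8 (blue), assembly factors of each complex (grey) and mitochondrially encoded subunits (red). Bright subunit genes of complexes III, IV and V have medians of −0.35, −0.14 and −0.22, against −1.25 for the 4 mitochondrially encoded genes.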

How the data were processed

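Total RNA of 5 preparations of K562 microvesicles and 5 of K562 cells was labelled as biotin cRNA for Affymetrix arrays, per the labels. The authors deposited 1 log2 value for each probe set and array, and the submitters' processing notes name RMA (robust multi-array average). RMA corrects background, makes probe intensities alike in distribution between arrays and summarises each probe set, so a different total amount of RNA is not visible. No settings are stated in the sources used here, and the deposited values differ between the groups in median and in spread. Precision is limited by the number of arrays.

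Of 54630 probe sets, 17 controls, 1801 annotated with several genes and 11721 with none listed were left out, and 41091 had 1 gene, named through the platform annotation and the RefSeq gene table. The brightest probe set stood for each gene. The 47 genes have 92 such probe sets, and 25 of the genes have more than 1. Suffixes _x_ (7 genes), _s_ (17) and _a_ (1) mark probe sets that may bind several transcripts.

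Microvesicles were compared with cells by limma 3.58.1 (lmFit and eBayes, R 4.3.3), 1 mean per group, 2-sided, with adjustment over all 19775 genes. The fit and loess were tested on simulated data. For the fit 200 genes were changed, far fewer than the 13179 that passed here. Alternatives were 3 scalings (median centring, a further quantile normalization, loess by level), a dim filter at 5, other probe set rules, other variance models, array weights, a rank sum test, the replicate number as a block and each array left out.

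The members, the lists and the tests were chosen with earlier results of these data known, and the level of 8 that separates bright from dim genes was set after the values were seen. Values of each array are given for the genes with the highest and the lowest change in each complex and the catalytic and core subunits except UQCRC2. They are also given for genes whose probe sets pass both ways and the isoform pairs. Other subunit genes are given by summary values. From each other list up to 2 genes that rose and 2 that fell were named. HBE1, GATA1, CD14, COX2 and COX3 lie outside this rule and were named after their values were seen.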

Additional observations from a re-analysis of the deposited data

Results flagged for a closer look

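Dixon's ratio was computed for the 5 arrays of each group in each of the 47 genes, 94 groups in all, and 5 groups held an array past the 95% critical value of 0.71, about the 1 in 20 that chance gives. COX8C read 4.26 in microvesicles 1, with the next microvesicle array at 2.62 and the lowest at 2.24. The pseudogene ATP5MC2P1 read 5.91 in microvesicles 3, with the next at 5.27 and the lowest at 5.14. SDHA read 9.61 in cells 1, with the next cell array at 9.44 and the lowest at 9.39. SDHC read 9.73 in cells 4, with the next at 9.43 and the lowest at 9.35. ATP5MJ read 11.22 in cells 5, with the next at 11.09 and the lowest at 11.04. Their causes were not tested.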

How the results depend on the processing

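The calls of single subunit genes depended on how arrays were scaled and on which probe sets stood for a gene. With unique probe sets 14 of 40 genes changed call or direction, among them COX5B, COX4I1, ATP5MG (−0.70) and ATP5F1A (−0.28, limma adjusted p = 0.165). Of the 45 probe sets that were not the brightest of their subunit gene, 5 were higher and 18 lower in the fit over every probe set. In that fit 62.4% of all probe sets passed. Array medians differ by 0.16 between the groups, which median centring removes. Under centring 3 subunit genes were higher and 22 lower (25.7% and 34.7% of all genes), after a further quantile normalization 14 and 2 (26.5% and 16.5%), and after loess 14 and 2. Quantile normalization left 8500 genes called in all, 3269 of them lower, and loess 3709 lower. Assembly factor and partner genes counted 10 higher and 9 lower after quantile normalization and 8 and 10 after loess, against 1 and 26 on the deposited values, and 2 were higher when the probe sets of a gene were averaged or only unique ones kept. With dim genes left out 7203 of 10118 genes passed, 1570 as higher, and 3 subunit genes were higher. Among all 54613 probe sets 34076 passed, 19318 as higher and 14758 as lower, and of the 92 probe sets of the 47 genes 40 passed, 10 as higher and 30 as lower. A variance trend with robust fitting gave 21 lower, beside 6264 of all 19775 genes. Array weights gave 17 called, beside 13354 of all genes, and the rank sum test 24, beside 11205.

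Leaving out 1 array in turn gave 15 to 21 subunit genes called, 5 to 7 higher and 10 to 14 lower, and 11664 to 13411 of all genes. The median over the 47 genes ranged from −0.18 to −0.14 in these fits, for complex II from −1.10 to −0.83, for III from −0.40 to −0.31, for IV from −0.06 to 0.02 and for V from −0.19 to −0.14. The median of the 47 genes was −0.30 after centring, 0.18 after quantile normalization, 0.14 after loess, −0.22 without dim genes and −0.26 with unique probe sets. Over all genes it was 0.04 after centring, 0.21 after quantile normalization and 0.14 after loess. Complex II moved to −0.36 (quantile) and −0.33 (loess), complex III to 0.011 and 0.020. Complex IV moved to −0.17 (centred), 0.23 (quantile), 0.17 (loess), −0.14 (no dim genes) and 0.12 (unique probe sets), and complex V to −0.33 (centred), 0.11 (quantile), 0.13 (loess) and −0.28 (unique probe sets).

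Changes that turned direction, none of them past the threshold on the deposited values except SDHD, UQCRQ and UQCR10, were these. Quantile normalization and loess gave SDHC 0.21 and 0.24, CYC1 0.38 and 0.43, UQCRQ 0.011 and 0.020, UQCR10 0.0025 and 0.0056, COX5A 0.20 and 0.16, COX5B 0.18 and 0.14, COX6C 0.044 and 0.00645, COX7A2 0.086 and 0.070, COX7C 0.062 and 0.053, COX8A 0.26 and 0.26, ATP5IF1 0.18 and 0.21, ATP5MG 0.031 and 0.036, ATP5MK 0.080 and 0.036, ATP5PD 0.11 and 0.13, ATP5PF 0.22 and 0.21 and ATP5PO 0.078 and 0.038. Loess gave COX6B2 −0.041. Centring gave UQCRB −0.075, COX4I1 −0.081, COX6B1 −0.11, COX6B2 −0.0076, ATP5F1D −0.064, ATP5F1E −0.0012 and ATP5MC1 −0.16. Averaged probe sets gave SDHD 0.014, UQCRB −0.0078, COX4I1 −0.23, COX5B 0.23 and ATP5F1E −0.47. Unique probe sets gave UQCRB −0.50, COX4I1 −1.22, COX5B 1.33 and COX7C 0.18. Among genes near 0, leaving out 1 array moved COX6B1 to between −0.0017 and 0.089, ATP5F1D to between −0.016 and 0.21, ATP5MC1 to between −0.15 and 0.089 and ATP5MF to between −0.16 and 0.056. The causes were not tested.

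The isoform pair differences turned for COX4I2 (−0.086 quantile, −0.18 loess), COX6B2 (−0.37 and −0.49) and COX7B2 (−0.42 and −0.52). Quantile normalization ended the calls of COX6A2 (0.51), COX7A1 (1.18) and COX8C (0.37), and loess that of COX8C (0.17). COX7B2 over COX7B passed with averaged probe sets (0.69) and COX4I2 over COX4I1 with unique probe sets (1.53). Leaving out 1 array gave 0.16 to 0.36 for COX4I2, 0.89 to 1.18 for COX6A2, −0.079 to 0.25 for COX6B2, 1.32 to 1.81 for COX7A1, 0.20 to 0.41 for COX7B2 and 0.72 to 1.18 for COX8C.

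Microvesicles and cells share replicate numbers 1 to 5, and the labels do not say that a number marks 1 culture. The correlation of deviations between same-numbered arrays was −0.0281 to 0.1235, with 2 of 5 over 0.1. Of the 5 microvesicle arrays 3 correlated best with their own number. These values cannot decide whether the numbers mark pairs, since low correlation can occur with pairs too. The main fit did not use the numbers. With the replicate number as a block 16 subunit genes passed, 6 as higher and 10 as lower, and 12974 of all genes. The pairing left the isoform differences of COX6A2 (1.05), COX7A1 (1.597) and COX8C (1.06) without a call, since 5 pairs cannot give an exact p under 0.0625 (adjusted 0.125).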
